A study of Mus musculus with 9 samples.

Results

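The potassium channel genes described here were the protein-coding genes of the deposited count table whose names start with Kcn, with Kcnj8 and Kcnj10 left out. The rule used names only and gave 92 of the 54532 genes listed. They hold the pore-forming subunits of voltage-gated, inwardly rectifying, 2-pore-domain and calcium- or sodium-activated potassium channels, together with the auxiliary subunits whose names carry the same prefix. The retinas of 9 wild-type C57BL/6 mice, 3 per group, were collected at P17 for RNA sequencing. Control mice were non-OIR mice and are labelled as given DMSO. OIR mice went through oxygen-induced retinopathy, in which pups are raised in high oxygen, lose part of the retinal capillary bed and return to room air with a hypoxic inner retina, and they received 1 intraocular injection of DMSO vehicle at P12. Treated OIR mice went through the same model and instead received 1 intraocular injection at P12 of 32-134D, an inhibitor of the hypoxia-inducible factors (HIFs), given as 70 ng/µl. The model is an acute injury of a developing retina in young mice.

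Potassium channels carry the outward current that repolarizes a neuron after each action potential and that sets its resting voltage. Pore-forming voltage-gated (Kv) subunits assemble as tetramers, which auxiliary proteins and electrically silent subunits modify, whereas inward rectifiers and 2-pore-domain channels hold the membrane near rest. In the retina, channels with the modifier subunit Kcnv2 shape the dark current of photoreceptors, Kv3 channels let ganglion and amacrine cells fire at high rates, and the ATP-sensitive channel formed by Kcnj11 couples energy state to membrane voltage.

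A control mouse had 16864135 to 27213184 counts in total, an OIR mouse 18556723 to 21071371 and a treated OIR mouse 16028731 to 18560178. All 6 rod markers were detected in every group, with summed levels of 34100 to 65370 CPM (counts scaled to library size), as the tissue label implies. Treated OIR mouse 2 stood apart, because crystallin genes of the lens took 15.8% of its counts and at most 0.186% in any other mouse, and several results are therefore also given without it. By Xist and Y-linked transcripts, 1 control, 1 OIR and 2 treated OIR mice were female.

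Of the 92 genes, 78 passed the filter on low counts and were tested, and 60 had a mean log2 CPM of at least 1. The 14 genes that did not pass were low in every group. Kcna10, Kcnk16 and Kcnk18 had 0 counts in all 9 mice, where the limit that a count of 0 allows, 3 counts, amounts to 0.105 to 0.193 CPM per mouse. Kcnk7, Kcnh4, Kcnj1, Kcng3, Kcne1, Kcnj4, Kcnj15, Kcnj16, Kcnk15, Kcnmb3 and Kcnv1 had no more than 16 counts in any mouse. These 11 include Kcnj16, the usual partner of Kcnj10 in glia.

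Levels were compared between genes as CPM per kilobase of listed gene length. On this scale Kcnj14, an inward rectifier of the Kir2 group, was the highest, with a control mean of 225 ± 51 (SD, n = 3), an OIR mean of 140 ± 41 and a treated OIR mean of 148 ± 39. Kcnv2, a silent subunit of photoreceptors, had 81.7 ± 11, 105 ± 22 and 112 ± 14. The cytoplasmic Kv subunit Kcnab2 reached 90.5 ± 19 in control mice, the single-pass subunit Kcne2 43.3 ± 4.6 and the Kv1 subunit Kcna5 38.4 ± 8. The other members reported by name lay at or below 28.2 CPM per kilobase in control mice.

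**Figure D1:**
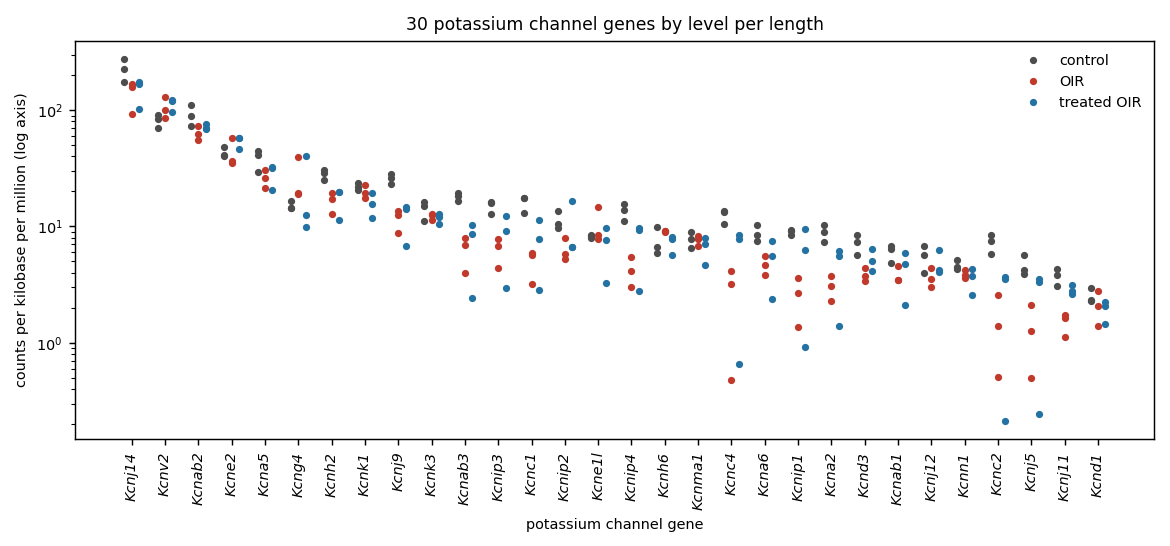
Level of 30 potassium channel genes in order of their mean over the 9 mice, in CPM per kilobase of listed gene length (vertical log axis), 1 point per mouse and 1 color per group. Kcnj14 has the highest group mean in each group, and in Kcnc1, Kcnc4 and Kcnip4 all OIR points lie below all control points.

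The comparison of OIR with control mice asks how the hypoxic retina of the model differs from the normal retina at P17. Most potassium channel genes had lower mean levels in OIR mice, although 1 passed the test across all genes. Kcnj11, the pore of the ATP-sensitive channel, fell 2.51-fold (log2 fold change -1.33 ± 0.22 SE, edgeR adjusted p = 0.0407), and it was the 1 member of 78 that passed lower, against 0.507% of all genes tested. With an absolute log2 fold change above 1 added, Kcnj11 remained the 1 member, against 0.302% of all genes. With edgeR 0 members passed higher, against 0.433% of all genes. An unadjusted p under 0.05 was found for 38 members, 3 higher and 35 lower. Over all genes this share was 23.8%, with 1947 higher and 2226 lower of 17540. The log2 fold change was below 0 for 60 of the 78 (76.9%), against 46.5% of all genes, and below -1 for 29 (37.2%), against 6.55%. The median was -0.65 for the members and 0.03 for all genes. All 3 OIR mice lay below all 3 control mice for 44 members (56.4%), against 17.2% of all genes, and above them for 3 (3.85%), against 15.9%. In tissue RNA, fewer cells of a type and less RNA per cell cannot be told apart.

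The number of members that passed differed between the alternatives. Without treated OIR mouse 2, which is not part of this comparison but adds to the shared estimate of spread, edgeR gave 29 members lower and 1 higher of 79, against 8.59% lower and 3.95% higher over all genes. Fitted on the control and OIR mice alone, DESeq2 gave 36 lower and 2 higher of 76 (10% and 5.58% of all genes), and edgeR gave 26 lower and 1 higher (7.44% and 2.88%). limma-voom with sample quality weights gave 31 lower and 2 higher of 78 (7.91% and 5.23%), and DESeq2 on all 9 mice 22 and 1 (6.93% and 4.44%). With no filter edgeR gave 7 lower and 0 higher of 89 (1.11% and 0.639%), and with at least 10 counts in every mouse 4 and 0 of 61 (1.38% and 1.17%). With total counts alone used for scaling 0 members passed (0.0513% of all genes lower and 0.16% higher). Without treated OIR mouse 10, edgeR gave 4 lower and 0 higher (0.736% and 0.349%), and without any 1 of the other 7 mice neither a member nor any other gene passed (0.0%). In the first 5 of these analyses, which called 6.93% to 10% of all genes lower, 18 members were lower each time and 37 in at least 1. The like counts over all genes were not made, and the other alternatives given above had 0 to 7 members lower. Kcnj11 passed in 10 of the 18 alternatives and missed it when any 1 control or OIR mouse or treated OIR mouse 5 was left out and when total counts alone were used for scaling, with adjusted p from 5.27e-06 to 0.163 over the alternatives.

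The shift of the members differed between mice of the same group. Relative to the control mean, the median member was at -0.22, 0.11 and 0.07 log2 CPM for controls 1, 6 and 7, at -0.46, -0.65 and -0.87 for OIR mice 3, 5 and 6, then at -0.95, -0.44 and -0.17 for treated OIR mice 2, 5 and 10. Treated OIR mouse 2 was the lowest of the 9 mice for 36 members and OIR mouse 6 for 21. Within sex, the median difference between OIR and control was -0.31 in females (1 mouse against 1) and -0.92 in males (2 against 2).

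**Figure D2:**
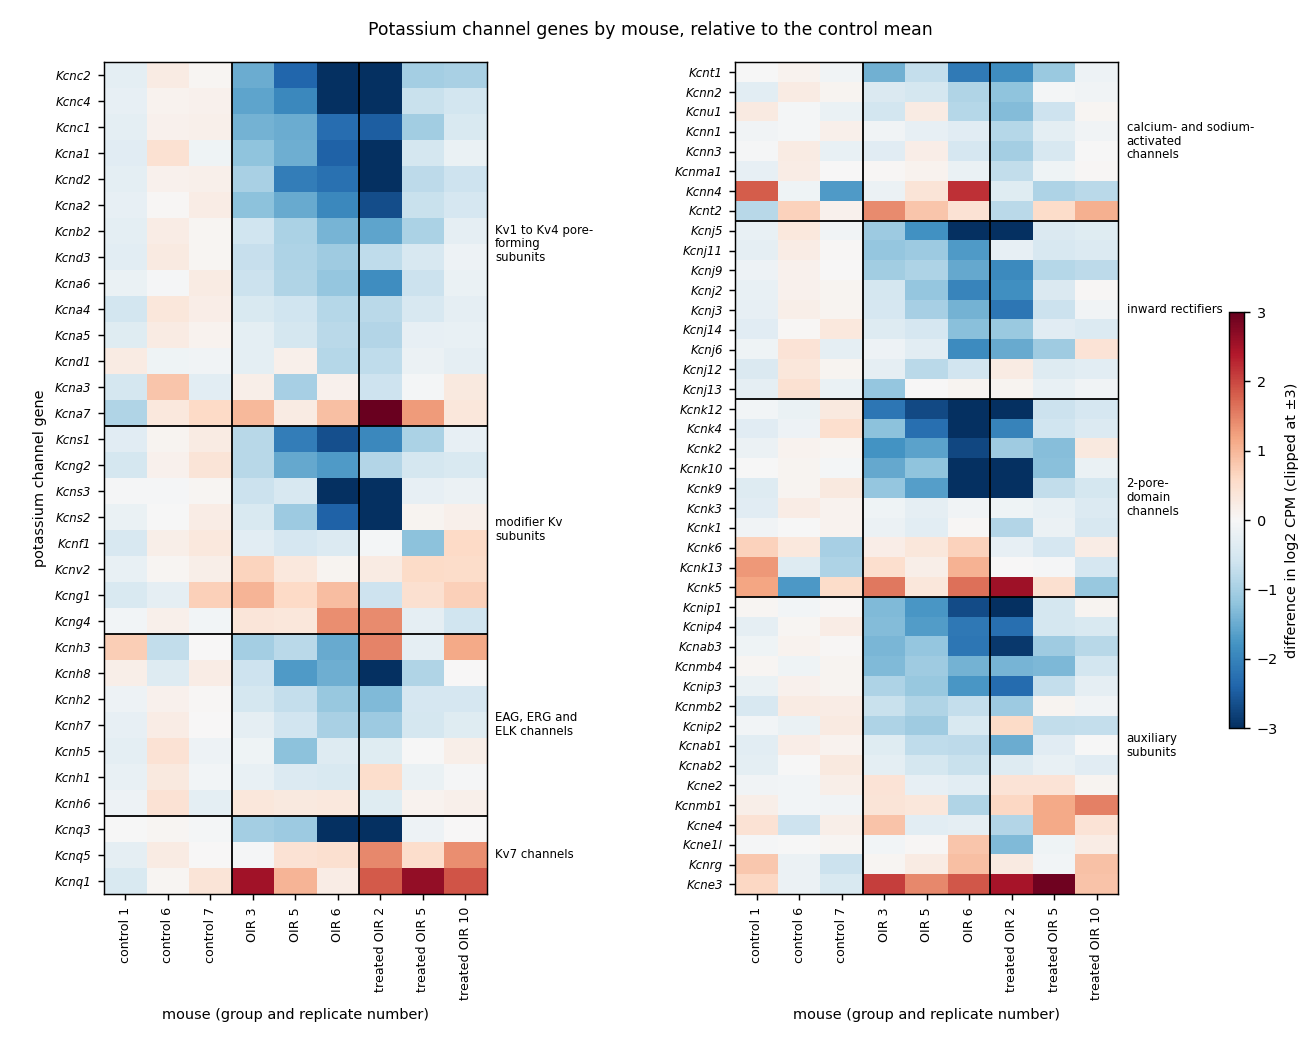
Log2 CPM of 74 tested potassium channel genes in each of the 9 mice as the difference from the mean of the control mice (color, clipped at ±3), with genes grouped by family and ordered by log2 fold change in OIR mice. Most of the Kv1 to Kv4, inward rectifier and 2-pore-domain rows are lower in the OIR columns, the darkest columns are OIR mouse 6 and treated OIR mouse 2, and Kcnq1, Kcne3 and Kcnv2 are not lower.

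Since 32-134D acts on the HIFs, the bases before each member's start were searched for the core of the site that HIF binds, ACGTG or GCGTG, on both strands. RefSeq promoters on build GRCm38.p6 were matched for 66 members, each read as the 250 bases before the start. The core was present in 25 of the 66 (37.9%), against 38.6% of all 32851 promoters in the table. It was present in 4 of 19 (21.1%) matched members whose log2 fold change in OIR mice was below -1 and in 16 of 35 (45.7%) of the other tested members. RefSeq's start lay more than 1000 bases from the start listed with the counts for 5 of the 66 (Kcnip4, Kcnj12, Kcnh2, Kcnj1 and Kcnma1). Without these 5, an alternative chosen after seeing the data, the core was present in 24 of 61 (39.3%), in 4 of 18 (22.2%) of the tested members below -1 and in 16 of 32 (50%) of the others. A match of 5 letters is not evidence of binding, and its absence from this window says nothing of other sites. The promoters below are those of the 3 pore-forming genes with the most negative log2 fold change among the matched members that the rule for named genes picked (Kcnk12, Kcnk2 and Kcnc1), which hold no match, and that of Kcnd3, which holds the most, with 7. They are written 5′ to 3′ on the strand of the gene, with matches on either strand in capitals. Kcnk12 lies at chr17:87797995-87798244 (minus strand), Kcnk2 at chr1:189402274-189402523 (minus strand), Kcnc1 at chr7:46396218-46396467 (plus strand) and Kcnd3 at chr3:105451640-105451889 (plus strand). The last begins from a start that is 440 bases from the start listed with the counts.
Kcnk12: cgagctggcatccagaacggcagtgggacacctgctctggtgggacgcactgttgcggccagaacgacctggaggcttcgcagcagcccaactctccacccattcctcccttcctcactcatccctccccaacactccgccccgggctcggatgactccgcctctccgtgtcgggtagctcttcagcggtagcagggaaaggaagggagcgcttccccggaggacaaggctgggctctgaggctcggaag
Kcnk2: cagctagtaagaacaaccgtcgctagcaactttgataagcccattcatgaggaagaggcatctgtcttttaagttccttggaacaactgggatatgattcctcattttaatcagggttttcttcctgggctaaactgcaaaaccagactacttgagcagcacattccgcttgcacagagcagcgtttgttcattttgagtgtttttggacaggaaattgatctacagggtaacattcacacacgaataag
Kcnc1: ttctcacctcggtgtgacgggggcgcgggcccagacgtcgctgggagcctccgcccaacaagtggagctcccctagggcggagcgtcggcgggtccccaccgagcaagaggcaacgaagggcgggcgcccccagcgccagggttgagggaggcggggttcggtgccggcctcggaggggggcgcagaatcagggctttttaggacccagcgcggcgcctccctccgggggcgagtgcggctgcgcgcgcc
Kcnd3: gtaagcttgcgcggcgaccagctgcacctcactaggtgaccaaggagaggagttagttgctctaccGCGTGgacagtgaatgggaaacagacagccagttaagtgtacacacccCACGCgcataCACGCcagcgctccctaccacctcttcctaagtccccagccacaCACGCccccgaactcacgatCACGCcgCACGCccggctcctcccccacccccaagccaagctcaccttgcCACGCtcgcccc

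Below, log2 CPM is given for every mouse in the order control 1, 6 and 7, then OIR 3, 5 and 6, then treated OIR 2, 5 and 10. A difference of 1 on this scale is a 2-fold difference. Adjusted p-values are edgeR's, over 17540 genes.

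The Kv1 to Kv4 subunits form the main delayed-rectifier and A-type channels. Of the 16 tested, 15 had a log2 fold change below 0 in OIR mice, with a median of -0.90. At an unadjusted p under 0.05, 12 were lower, against 2226 of all 17540 genes. None passed after adjustment with edgeR on all 9 mice (0.507% of all genes lower and 0.433% higher). Without treated OIR mouse 2, 10 of 16 were lower, against 8.59% of all genes. DESeq2 on the 2 groups gave 11 of 15 lower (10% of all genes), and limma-voom 11 of 16 (7.91%). Kcnc1, the Kv3 subunit of fast-firing neurons, was at 6.95, 7.37 and 7.38, then 5.81, 5.75 and 4.94, then 4.75, 6.20 and 6.76. Every OIR mouse was below every control mouse, and the treated mice spread over more than the whole OIR range (log2 fold change -1.70 ± 0.44 SE in OIR, adjusted p = 0.0798). The Kv3 subunits Kcnc2 and Kcnc4, chosen after their values were seen, had log2 fold changes of -2.30 ± 0.84 and -2.26 ± 0.87 SE, with adjusted p of 0.147 and 0.163, and OIR mouse 6 was the lowest OIR mouse for both.

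The Kv4 gene Kcnd3, an A-type subunit, was at 5.78, 6.35 and 6.15, then 5.40, 5.17 and 5.02, then 5.33, 5.61 and 5.95. The OIR mice were below the controls without overlap (-0.91 ± 0.19 SE, adjusted p = 0.0603), and the treated mice lay across both. Kcna1, an axonal Kv1 subunit, was at 3.24, 4.04 and 3.44, then 2.37, 2.10 and 1.15, then 0.58, 3.05 and 3.38 (-1.68 ± 0.62 SE in OIR, adjusted p = 0.148). Treated OIR mouse 2 had the lowest level of Kcna1 and the other treated mice were near the controls. Kcna5 had -0.55 ± 0.22 SE (adjusted p = 0.172), and its groups overlapped.

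**Figure D3:**
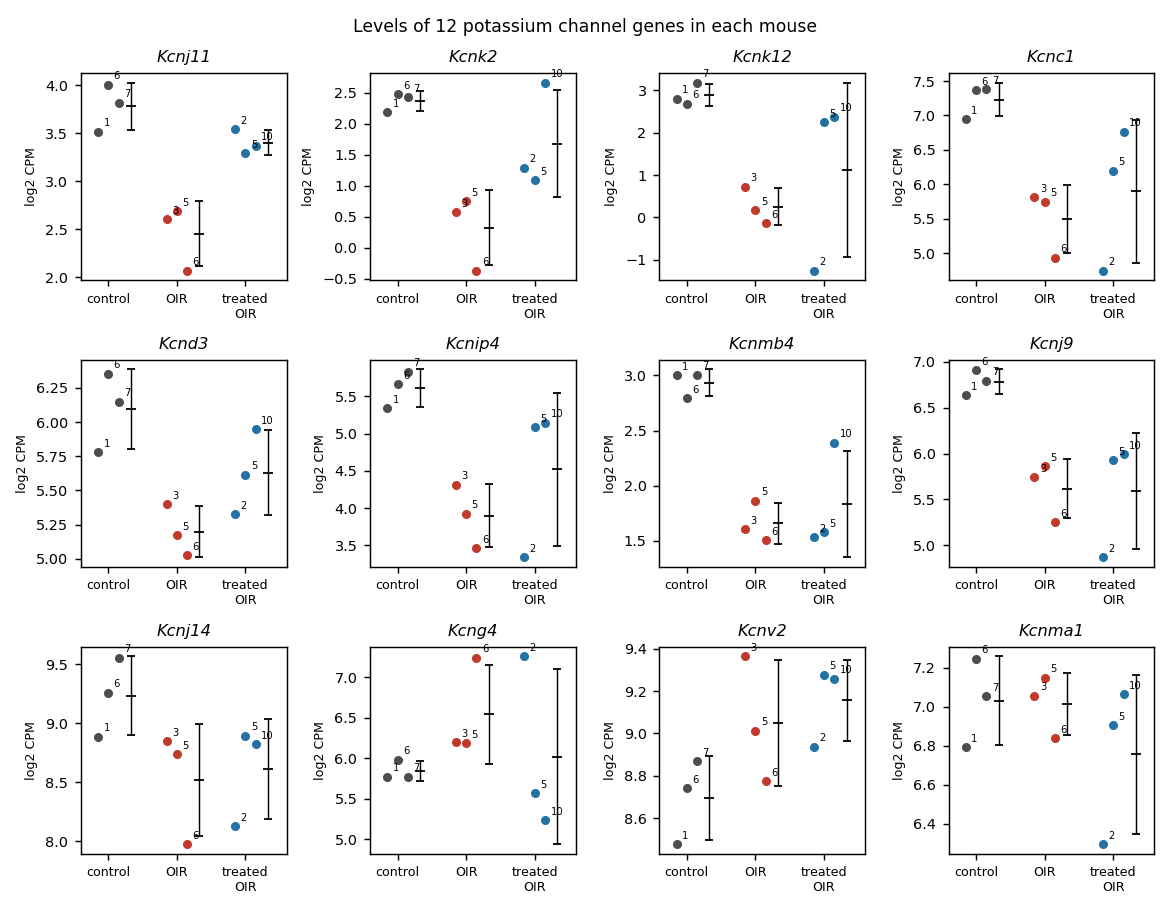
Log2 CPM of 12 potassium channel genes in each mouse (points, numbered by replicate) with the group mean and SD (bars, n = 3). Kcnj11, Kcnk2, Kcnk12, Kcnc1, Kcnd3, Kcnip4, Kcnmb4, Kcnj9 and Kcnj14 are lower in all 3 OIR than in all 3 control mice, Kcng4 is higher, and Kcnv2 and Kcnma1 overlap. All but Kcnj14, Kcnv2 and Kcnma1 were picked by a rule that required no overlap between OIR and control mice.

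The modifier Kv subunits do not conduct alone and join pore-forming Kv subunits. Of 8 tested, 5 had a log2 fold change below 0, and the median was -0.80. At an unadjusted p under 0.05, 2 were lower, against 2226 of all 17540 genes. Kcnv2 was at 8.48, 8.74 and 8.87, then 9.36, 9.01 and 8.77, then 8.94, 9.28 and 9.26. Its OIR and control values overlapped (0.37 ± 0.18 SE, adjusted p = 0.253). Kcng2 was lower in all OIR than in all control mice, at 1.37, 2.02 and 2.27, then 1.06, 0.34 and 0.18, then 1.0, 1.35 and 1.42 (-1.41 ± 0.36 SE, adjusted p = 0.0792). Kcng4 was at 5.77, 5.98 and 5.77, then 6.20, 6.19 and 7.25, then 7.26, 5.57 and 5.24. OIR mouse 6 and treated OIR mouse 2, the mice lowest for most members, were the highest for Kcng4 (0.79 ± 0.50 SE in OIR, 0.35 without OIR mouse 6, adjusted p = 0.369). Kcng1 had 0.78 ± 0.40 SE (adjusted p = 0.273), with overlap.

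Among the EAG, ERG and ELK channels 6 of 7 had a log2 fold change below 0 in OIR mice, with a median of -0.59. At an unadjusted p under 0.05, 3 were lower, against 2226 of all 17540 genes. Kcnh2, the ERG channel of slow repolarization, was at 6.93, 7.22 and 7.12, then 6.56, 6.37 and 5.96, then 5.77, 6.60 and 6.59. Both OIR groups were below the controls (-0.78 ± 0.23 SE in OIR, adjusted p = 0.0981). Kcnh1, an EAG channel, had -0.38 ± 0.22 SE and Kcnh6, another ERG channel, 0.27 ± 0.20 SE.

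The Kv7 channels, which carry the M-current that restrains repetitive firing, did not share a direction. Kcnq3, a subunit of the neuronal M-channel, was at 3.78, 3.83 and 3.73, then 2.76, 2.69 and -0.45, then 0.45, 3.62 and 3.79 (-1.59 ± 0.86 SE in OIR, adjusted p = 0.297). The OIR mice were below the controls, and OIR mouse 6 and treated OIR mouse 2 were far below the rest of their groups. Kcnq1, chosen after its values were seen, was low, with 11, 12 and 12 counts, then 69, 27 and 15, then 36, 66 and 46. Its log2 fold change in OIR was 1.69 ± 0.63 SE with overlap in log2 CPM, and 0.75 without OIR mouse 3.

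Calcium- and sodium-activated channels had the smallest shift among the families with a negative median, -0.22 over 8 tested genes, of which 6 were below 0. Kcnma1, the large-conductance BK channel, was at 6.79, 7.25 and 7.05, then 7.06, 7.15 and 6.84, then 6.30, 6.91 and 7.07. The groups overlapped (-0.02 ± 0.20 SE in OIR), and the sign of Kcnma1 changed when total counts were used for scaling. The small-conductance channels Kcnn1 and Kcnn2 had -0.24 ± 0.19 and -0.62 ± 0.31 SE, and for both the OIR mice lay below the controls without passing the test.

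All 9 inward rectifiers tested had a log2 fold change below 0 in OIR mice, with a median of -0.95. Kcnj11 (chr7:46093953-46100764 on GRCm38, minus strand) was at 3.51, 4.0 and 3.82, then 2.61, 2.69 and 2.07, then 3.54, 3.29 and 3.37. The OIR mice were the lowest 3 of the 9, and the treated mice lay near the lower end of the controls. Treated OIR mouse 2 was not low for this gene. Its partner subunit in the ATP-sensitive channel is the sulfonylurea receptor encoded by Abcc8, no member of the list and named after its values were seen. Abcc8 was at 4.51, 4.33 and 4.16, then 3.09, 3.53 and 2.70, then 4.23, 3.51 and 4.03. The group means of Abcc8 had the same order as those of Kcnj11, with OIR below control (-1.20, adjusted p = 0.0602). Treated OIR mouse 5 lay just below OIR mouse 5 for Abcc8, so treated and OIR mice overlapped, which they did not for Kcnj11.

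Kcnj9, a G-protein-gated rectifier, was at 6.64, 6.91 and 6.80, then 5.74, 5.86 and 5.25, then 4.87, 5.93 and 5.99. Both OIR groups were below the controls (-1.15 ± 0.28 SE in OIR, adjusted p = 0.07). Kcnj14, the member with the highest level, was at 8.89, 9.26 and 9.55, then 8.85, 8.74 and 7.97, then 8.13, 8.90 and 8.82 (-0.69 ± 0.28 SE, adjusted p = 0.182). OIR mouse 3 lay just under the lowest control. Kcnj2, a classical strong rectifier, had -1.13 ± 0.48 SE (adjusted p = 0.19), and its relative Kcnj12 had -0.57 ± 0.26 SE with overlap. Kcnj13, the rectifier of the pigment epithelium's apical membrane, had -0.31 ± 0.39 SE with overlap.

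The 2-pore-domain channels, which carry background current, held the lowest single log2 fold change and the lowest median of the 8 families. Of 10 tested, 7 were below 0, 5 were below -1, and the median was -1.02. Kcnk12 was at 2.8, 2.69 and 3.18, then 0.72, 0.17 and -0.13, then -1.26, 2.25 and 2.38. Treated OIR mouse 2 was the lowest of all, and the other treated mice were closer to the controls than to any OIR mouse. The log2 fold change of Kcnk12 in OIR, -2.71 ± 0.75 SE, was the lowest of the 78 members (adjusted p = 0.0896). Kcnk2, the mechanically gated channel TREK-1, was at 2.18, 2.47 and 2.43, then 0.58, 0.75 and -0.37, then 1.29, 1.09 and 2.66. The 3 OIR mice were the lowest of the 9 (-2.05 ± 0.49 SE, adjusted p = 0.0679). Kcnk1 and Kcnk3, the members of this family with the highest level per length, had -0.15 ± 0.17 and -0.19 ± 0.15 SE, and their OIR and control values overlapped.

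**Figure D4:**
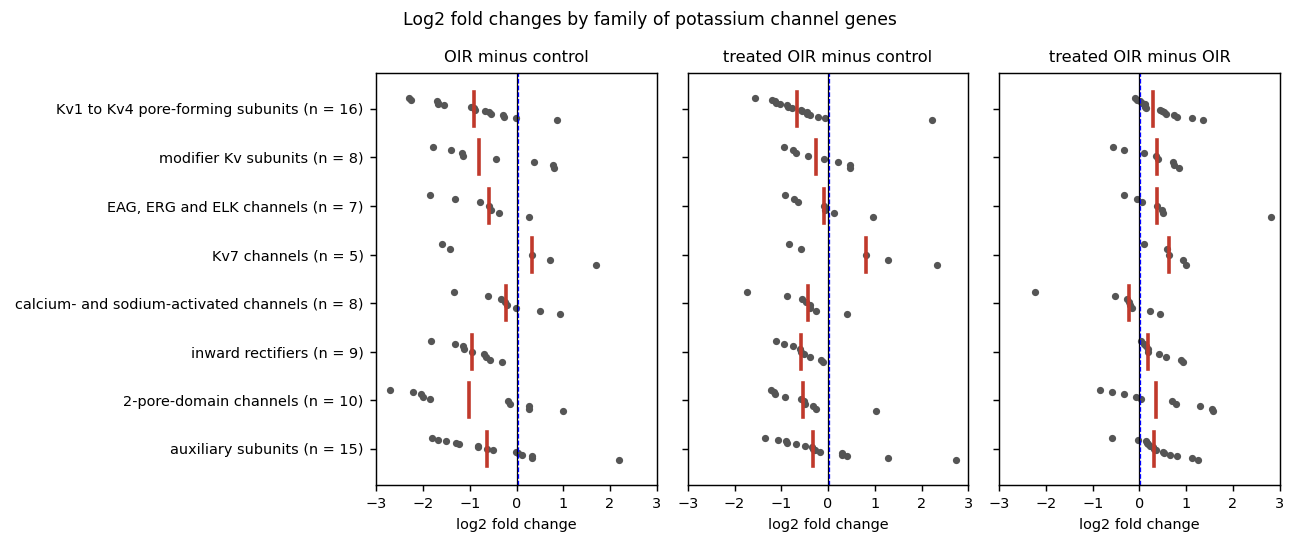
Log2 fold change of the 78 tested potassium channel genes by family in the 3 comparisons (points, 1 per gene), with the family median (red bar) and the median of all 17540 genes (dashed line). In OIR mice all 9 inward rectifiers and 15 of 16 Kv1 to Kv4 genes lie below 0, and the Kv7 median lies above 0.

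Of the 15 auxiliary subunits tested, 10 had a log2 fold change below 0 in OIR mice, with a median of -0.64. At an unadjusted p under 0.05, 7 were lower, against 2226 of all 17540 genes. Kcnip4, a calcium-binding partner of Kv4 channels, was at 5.34, 5.66 and 5.83, then 4.31, 3.93 and 3.46, then 3.34, 5.09 and 5.15 (-1.69 ± 0.42 SE in OIR, adjusted p = 0.0747). Kcnab3, a cytoplasmic Kv1 partner, was at 5.57, 5.80 and 5.72, then 4.33, 4.53 and 3.52, then 2.81, 4.63 and 4.87 (-1.52 ± 0.45 SE, adjusted p = 0.102). For both genes all OIR and treated OIR mice were below all controls. Kcnmb4, the neuronal BK subunit, was at 3.0, 2.79 and 3.01, then 1.60, 1.87 and 1.51, then 1.53, 1.58 and 2.39 (-1.29 ± 0.28 SE, adjusted p = 0.0606). It was lower while its pore Kcnma1 was not, though the difference between the genes was not tested. Kcnip3, also known as the transcriptional repressor DREAM, had -1.24 ± 0.43 SE (adjusted p = 0.134), and Kcnab2, the auxiliary gene with the highest level, -0.51 ± 0.17 SE (adjusted p = 0.12). Kcne2 was at -0.01 ± 0.19 SE, with a sign that changed with the scaling. Kcnip1, Kcnip2 and Kcne3 were chosen after their values were seen. Kcnip1 had -1.82 ± 0.66 SE (adjusted p = 0.145), Kcnip2 -0.82 ± 0.35 SE (adjusted p = 0.201), and Kcne3, at a very low level, 2.19 ± 0.72 SE (adjusted p = 0.122).

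Of the 92 members, 42 overlap another listed gene. Of the members named here, Kcnd3, Kcnh1, Kcnh2, Kcnq1, Kcnq3, Kcng2, Kcnma1, Kcnn1, Kcnn2, Kcnj9, Kcnj13, Kcnj15, Kcnk1, Kcnk2, Kcnk3, Kcnip1, Kcnip4, Kcnab2, Kcnab3, Kcnmb1, Kcnmb4 and Kcne3 overlap a gene on the opposite strand, Kcnip1 and Kcnmb1 overlap each other, and Kcnip3 overlaps a gene on its own strand. Kcnd3, Kcng2, Kcnk2, Kcnq1, Kcnab2, Kcnip1 and Kcnip4 also overlap a gene on their own strand. Whether counting used strand is not given in the sources used here, and strand cannot separate genes on the same strand. The counts of all these members may therefore include reads of the overlapping gene. Kcnj11, Kcnj2, Kcnj12, Kcnj14, Kcnk12, Kcna1, Kcna5, Kcnc1, Kcnc2, Kcnc4, Kcng1, Kcng4, Kcnv2, Kcnh6, Kcnip2 and Kcne2 overlap no other listed gene.

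Cell type marker lists differed in their direction in OIR mice. The 8 ganglion cell markers summed to 1481 to 2076 CPM among controls, to 722, 459 and 180 CPM for OIR mice 3, 5 and 6, and to 121, 1161 and 1203 CPM for treated OIR mice 2, 5 and 10. The 8 amacrine markers summed to 738.8 to 998.7 CPM, then 450.9, 392.6 and 230.8, then 192.0, 512.5 and 751.0. All 8 markers of each list had a log2 fold change below 0 in OIR mice, with medians of -1.98 and -1.62, and OIR mouse 6 and treated OIR mouse 2 were lowest in their groups for both lists. These mice were also lowest in their groups for the rod (34100 and 39360 CPM) and cone sums (851.7 and 945.9 CPM). The same held for endothelial (73.02 and 78.28 CPM) and pericyte and smooth muscle sums (105.2 and 160.9 CPM). The bipolar, horizontal, Müller glia, astrocyte, microglia and macrophage, pigment epithelium and lens sums did not share this pattern. The 8 bipolar markers summed to 1141 to 1324 CPM among controls, 1458 to 1547 CPM among OIR mice and 1201 to 1276 CPM among treated OIR mice, and the summed level of the 6 rod markers overlapped between groups. In OIR mice the median log2 fold change was 0.24 for bipolar, 0.31 for horizontal and 0.53 for Müller glia markers. It was 0.90 for astrocyte and 0.38 for microglia and macrophage markers. Rod and cone markers had -0.14 and -0.17, and pigment epithelium markers -0.28. Endothelial markers had 0.16, and pericyte and smooth muscle markers 0.04. The 12 lens markers summed to 128400 CPM in treated OIR mouse 2 and at most 1002 in any other mouse. None of the ganglion cell, amacrine, bipolar, rod and lens markers was at 0 in a whole group. The part of any cell type in the potassium channel results was not tested.

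**Figure D5:**
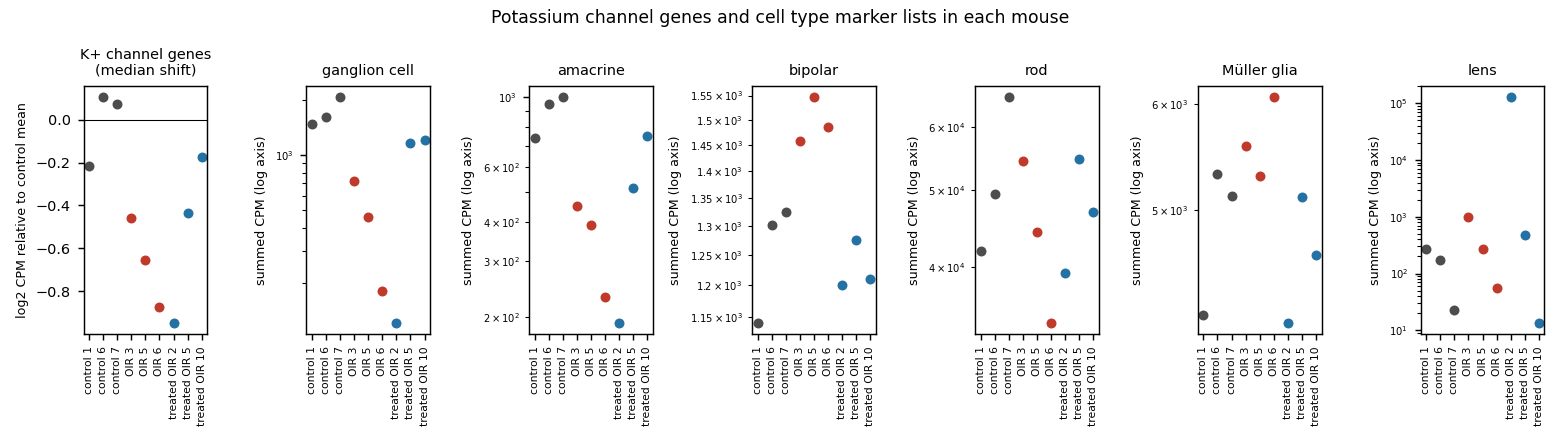
Median difference of the 78 tested potassium channel genes from the control mean (left, log2 CPM) and summed CPM of 6 marker lists (log axes) in each of the 9 mice. Ganglion cell, amacrine and rod sums are lowest in OIR mouse 6 and treated OIR mouse 2, the mice with the lowest channel medians, and the lens sum is 128400 CPM in treated OIR mouse 2.

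The comparison of treated OIR with control mice asks what differed from the normal retina after 32-134D. It shares its control mice with the comparison above. By edgeR 0 of 78 members passed in either direction, against 0.0114% of all genes each way, and 18, 11 lower and 7 higher, had an unadjusted p under 0.05, against 18.6%. DESeq2 on all 9 mice gave 5 lower and 2 higher (2.45% and 2.25% of all genes), on the 2 groups 2 and 1 of 73 (1.09% each), and limma-voom 5 and 2 (2.66% and 2.62%). The log2 fold change was below 0 for 62 members (79.5%), against 48.6% of all genes, below -1 for 12 (15.4%), against 3.84%, and the median was -0.49, against 0.01. Without treated OIR mouse 2 the median was -0.31, and 0 members passed (0.0% of all genes lower and 0.0166% higher). All treated mice lay below all controls for 23 members (29.5%, 12.2% of all genes) and above for 6 (7.69%, 12.8%).

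Against the controls, the log2 fold change in treated mice put Kcnj9 at -1.11 ± 0.28 SE, Kcnmb4 at -1.06 ± 0.28 SE, Kcnab3 at -1.35 ± 0.45 SE and Kcnh2 at -0.73 ± 0.23 SE, with adjusted p of 0.13, 0.141, 0.192 and 0.175. Kcnk1 was at -0.49 ± 0.17 SE (adjusted p = 0.206), and its 3 treated mice, at 4.74, 5.44 and 5.13, were below the controls at 5.52, 5.61 and 5.72. The members higher in all treated than in all control mice included Kcnv2 (0.46 ± 0.18 SE, adjusted p = 0.228). Kcnj11 was at -0.39 ± 0.21 SE (adjusted p = 0.351), and treated OIR mouse 2 was above the lowest control. Leaving out treated OIR mouse 2 gave -0.82 for Kcnj9, -0.90 for Kcnmb4, -0.93 for Kcnab3, -0.50 for Kcnh2 and -0.32 for Kcnk1. Kcnv2 was then at 0.57 and Kcnj11 at -0.45.

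The comparison of treated OIR with OIR mice bears on the inhibitor within the model. By edgeR 0 of 78 members passed in either direction, as did 0.0% of all genes, and 7, all higher, had an unadjusted p under 0.05, against 4.69%. DESeq2 gave 1 higher and 0 lower on all 9 mice (0.108% and 0.0798% of all genes) and the same counts on the 2 groups (0.106% and 0.337%), and limma-voom gave 0 (0.0% higher and 0.0057% lower). The DESeq2 gene was Kcnj11. The log2 fold change was above 0 for 60 members (23.1% were below 0, against 48.7% of all genes), with a median of 0.31, against 0.01. This median was 0.46 without treated OIR mouse 2, 0.45 without OIR mouse 3, 0.18 without OIR mouse 6 and 0.06 without treated OIR mouse 10. Within sex it was -0.35 in females (2 treated mice, mouse 2 among them, against 1) and 0.72 in males (1 against 2), so its direction did not hold within sex.

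Treated and OIR mice did not overlap for 9 members. All treated mice were above all OIR mice for 6 (7.69%, against 3.74% of all genes) and below for 3 (3.85%, against 5.39%). Kcnj11 was higher by 0.94 ± 0.22 SE (adjusted p = 0.862 by edgeR, 0.0462 to 1 over the alternatives), with all treated mice at 3.29 or more and all OIR mice at 2.69 or less. Kcnk2 was higher by 1.54 ± 0.49 SE (adjusted p = 0.984) and Kcnh1 by 0.50 ± 0.22 SE (adjusted p = 1). Kcnh6 was at -0.33 ± 0.20 SE, with treated mice at 4.36, 4.80 and 4.85 and OIR mice at 5.04, 5.0 and 5.02. For Kcnc1, Kcnip4 and Kcnk12 the difference was 0.57 ± 0.43, 0.79 ± 0.42 and 1.58 ± 0.74 SE, and treated OIR mouse 2 was below every OIR mouse for all 3. Kcnj9 was at 0.04 ± 0.27 SE. With treated OIR mouse 2 left out, Kcnh1 was at 0.29 and Kcnh6 at -0.16, whereas Kcnk2 was at 1.79 and Kcnj11 at 0.89.

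Genes that work with these channels were listed apart from them, as 5 groups of 33 genes in all, of which 27 were tested. They are the HCN channels, the sodium-potassium ATPase, channel-associated proteins, the cation-chloride cotransporters and the potassium-dependent sodium-calcium exchangers. By edgeR 0 of the 27 passed in each of the 3 comparisons, with 11, 8 and 2 at an unadjusted p under 0.05 in OIR against control, treated OIR against control and treated OIR against OIR, against 23.8%, 18.6% and 4.69% of all genes. Without treated OIR mouse 2, 9 were lower and 2 higher in OIR than control mice, against 8.59% and 3.95% of all genes. The medians in OIR mice were -0.42 for the 4 HCN channels, 0.17 for the 6 ATPase subunits tested, -0.29 for 7 channel-associated proteins, 0.47 for 5 cotransporters and -0.03 for 5 exchangers. The following were chosen after their values were seen. Hcn2, a pacemaker channel, had -1.06 (adjusted p = 0.0539). Dpp6, a Kv4 auxiliary protein, had -1.29 (adjusted p = 0.0679). Slc12a5, the neuronal chloride extruder KCC2, had -0.58 (adjusted p = 0.0949), and Slc12a2, the chloride importer NKCC1, 0.54 (adjusted p = 0.0619).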

How the data were processed

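RNA of 9 retinas was sequenced, and the deposited file is a gene table of whole-number counts that the authors left unnormalized. Processing notes of the submitters name CASAVA and HISAT; the counting tool, strand setting, annotation and filters are not given in the sources used here. Of the 92 members, 88 have an identical position in GENCODE M21, so coordinates are given on GRCm38. Each mouse was 1 replicate, assigned from its labels, and nothing states more about how the animals were sampled. P-values therefore weigh the difference between groups against the spread between these mice. Total counts per mouse were 16028731 to 27213184. Counting error is larger for members with few counts. Kcnk12 had 29, 22 and 18 counts in OIR mice and 5 in treated OIR mouse 2, and Kcnk2 had 26, 34 and 15 in OIR mice.

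All 9 mice were fitted in edgeR 4.0.16 (R 4.3.3) with 1 mean per group, TMM factors, the default filter by group (17540 genes) and the quasi-likelihood F test, with Benjamini-Hochberg adjustment over all genes tested. A gene passed at an adjusted p below 0.05. The table holds no covariate, and none was used. Log2 CPM used TMM-scaled libraries and a prior count of 2, and levels per kilobase used the listed gene length. SEs were derived from the F statistic. Alternatives were DESeq2 1.42.0 with 9 mice or with only the groups of a comparison, edgeR with only those groups, limma 3.58.1 (voom with sample quality weights), 3 other scalings, no filter, 10 counts in every mouse, and leaving out each mouse. The scripts were tested on simulated data.

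Named were members past the threshold, the 10 lower and 10 higher (5 and 5 in comparisons with treated OIR mice) with the smallest p whose groups did not overlap and whose log2 CPM averaged 1 or more, the 3 highest per length in each of 8 families, and 8 with known retinal roles. Some of these genes, and 1 of the genes that work with the channels, are not reported here; they remain in counts and medians. Members, lists and rules were chosen with earlier results of these data known. Promoter sequences are RefSeq's.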

Additional observations from a re-analysis of the deposited data

How the results depend on the processing

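The number of members passing in OIR against control depended on the alternative, whereas the median log2 fold change kept its sign in all of them in each of the 3 comparisons. These alternatives do not split the mice by sex. For treated OIR against OIR the median difference was -0.35 in females and 0.72 in males, so its direction did not hold within sex. Members lower and higher in OIR than control were 22 and 1 with DESeq2 on all 9 mice (6.93% and 4.44% of all genes). DESeq2 on the 2 groups gave 36 and 2 (10% and 5.58%), and edgeR on the 2 groups 26 and 1 (7.44% and 2.88%). With limma-voom they were 31 and 2 (7.91% and 5.23%). Lower members were 0 with total counts alone (0.0513% of all genes), 7 with no filter (1.11%) and 4 with 10 counts in every mouse (1.38%). Leaving out 1 mouse gave 0 to 29 lower and 0 to 1 higher. Without treated OIR mouse 2 the counts were 29 and 1, against 8.59% and 3.95% of all genes. Without treated OIR mouse 10, 4 were lower (0.736%), and without each of the other 7 mice 0 (0.0%). The cause was not tested. Treated OIR against control gave 5 lower and 2 higher with DESeq2 on all 9 mice (2.45% and 2.25% of all genes) and with limma-voom (2.66% and 2.62%). DESeq2 on the 2 groups gave 2 and 1 (1.09% each). Treated OIR against OIR gave 1 higher with either DESeq2 fit (0.108% of all genes on all 9 mice and 0.106% on the 2 groups). The log2 fold change in OIR changed sign for 3 named genes. For Kcnma1 it was 0.045 with total counts alone and -0.1345 to 0.0908 without 1 mouse, and for Kcnj13 -0.5199 to 0.0068 without 1 mouse. For Kcne2 it was 0.014 with limma-voom, 0.0055 with upper-quartile scaling, 0.0517 with total counts alone, 0.0023 with no filter, and -0.2788 to 0.1186 without 1 mouse. No paired analysis was possible because the labels give no pairing of mice between groups. The groups compared also share fewer than 2 replicate numbers. With 3 mice a group, precision was set by the spread between mice, and for members with few counts also by counting error.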
